A study of Rattus norvegicus with 36 samples.

Results

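Mammary cancers that arose in untreated female Sprague-Dawley rats were set beside normal mammary tissue of untreated rats of the same strain. The 6 arrays were chosen by their labels alone, 3 of spontaneous cancer and 3 of normal tissue, of 36 arrays in the series. Neither group had received radiation or a chemical carcinogen. The rats of the study were bought at 5 weeks of age, the treated ones were treated at 7 weeks, and all were fed a high-fat diet (23.5% corn oil) after 9 weeks. The 3 cancers carried no H-ras mutation per the labels, and the labels give no H-ras state for normal tissue and no age or reproductive stage at tissue collection for either group. A second comparison used 19 further cancers without H-ras mutation. They had followed whole-body gamma radiation (1 Gy, 4 cancers), the alkylating agent methylnitrosourea (MNU, 40 mg/kg, 4 cancers), or PhIP, a heterocyclic amine of cooked meat (given by gavage, 3 cancers). The rest had followed radiation before MNU (4 cancers) or radiation before PhIP (4 cancers). The labels do not say that each sample came from a separate rat, so the p-values measure only a spread between samples. That spread was estimated within groups over all 36 arrays. These included H-ras mutated cancers after MNU, PhIP or radiation plus MNU, which are not compared here.

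The rat mammary gland consists of ducts and lobules with an inner luminal and an outer basal, contractile layer of epithelium, set in a pad of fat with vessels, nerves and immune cells. Hormone-sensing luminal cells answer oestrogen, progesterone and prolactin with secreted factors such as amphiregulin and Wnt4, which act on neighbouring cells. Mammary cancers are common in ageing females of this strain, and many depend on hormones.

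Expression is given as log2(intensity + 42.8), called the log2 level here, and values of a group are listed in the order of its replicates 1, 2 and 3. The luminal keratins Krt8 (12.49 to 13.24 over the 6 arrays), Krt18 (12.18 to 12.90) and Krt19 (12.35 to 13.21) were high in all 6 arrays. Both groups thus held epithelium. With limma none of the 3 keratins passed an adjusted p of 0.05 between cancer and normal tissue. After quantile normalization Krt18 (0.63, adjusted p = 0.0157) and Krt8 (0.69, adjusted p = 0.0459) passed as higher in the cancers, so their standing depends on the scaling. The adipocyte hormone Adipoq had log2 levels of 11.90, 10.96 and 11.43 in normal tissue, the cell mix of a whole gland, and of 7.11, 6.61 and 6.94 in the cancers. Adipoq was tested only because normal tissue passed the filter on low values, so its difference is no test of the labels. Over all genes the 3 cancers correlated at 0.959 to 0.969 with each other, the 3 normal tissues at 0.950 to 0.955, and arrays of different groups at 0.839 to 0.879. The leading principal component of the 6 arrays held 66.5% of the variance and put the cancers at −43.9 to −34.2 and the normal tissues at 34.0 to 40.6. Array quality also moved with the groups. The signal ceiling of an array, a high percentile of its log2 levels, was 13.34 to 13.53 in the cancers and 13.68 to 14.38 in normal tissue, and normal tissue 3 stood apart with the highest intensity of 32544. The 3'/5' signal ratio of beta-actin, which rises as RNA breaks down, was 1.18 to 1.31 in the cancers and 1.37 to 1.71 in normal tissue. Fits with each of these as a covariate were run as alternatives.

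The comparison asked which genes separate spontaneous cancer from normal gland. Among the largest falls in the cancers were the fat cell genes Fabp4, Cidec and Plin1, and among the largest rises were the growth factor genes Areg and Igf2, the prolactin receptor Prlr and the proteases Mmp3 and Mmp13. Of 11773 genes tested with limma, 2768 passed an adjusted p of 0.05 (23.5%), 1528 of them higher (13%) and 1240 lower (10.5%) in the cancers. These shares are the background for every list count below. Of the 1240 lower genes 73, Cidec among them, passed the filter on low values only through normal tissue and so had to differ. Without them 1167 fell. Among all genes tested, 38 passed the filter only through the spontaneous cancers. An unadjusted p under 0.05 was found for 4195 genes. The change was at least 2-fold for 628 of the risen and 492 of the fallen genes, and at least 8-fold for 21 and 36. The median log2 fold change over all genes was 0.04. After scaling each array to its median, 945 genes passed as higher and 1560 as lower, and the median over all genes became −0.06, so that changes near 0 have no firm direction. The values of the 2 groups did not overlap for 5151 genes (43.8%), so that a gene list needs more than gaps between groups to stand out. With the ceiling as a covariate 1416 genes passed, with the actin ratio 1576, and without spontaneous cancer 3 there were 1810.

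**Figure D1:**
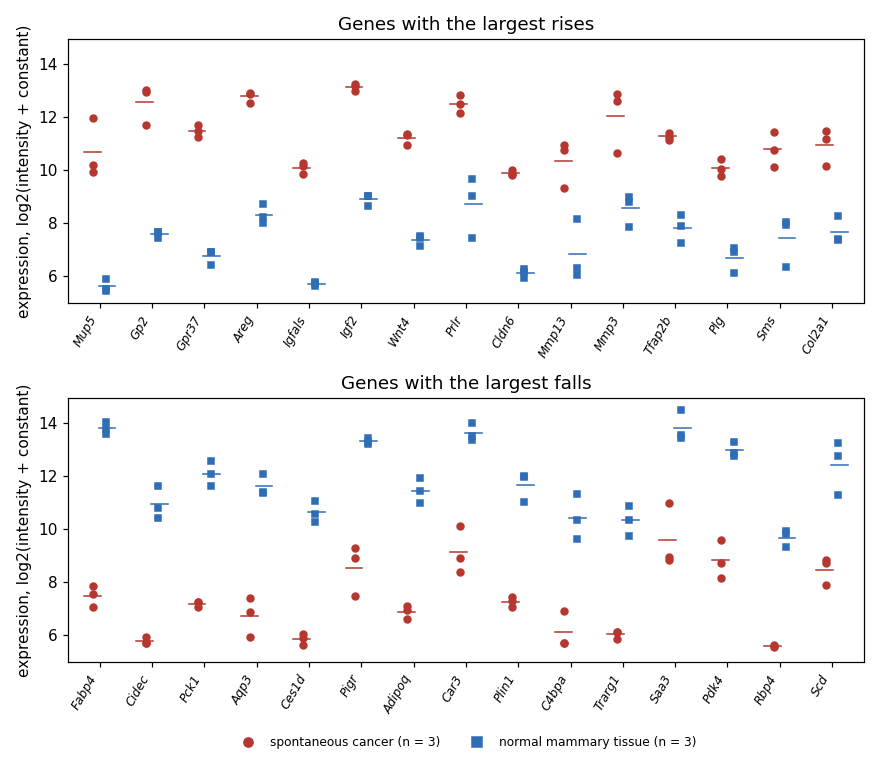
Log2 levels of the 15 genes with the largest rises (top) and the 15 with the largest falls (bottom) past the threshold, 1 point per array with the group mean as a line, spontaneous cancers in red and normal tissues in blue. The groups did not overlap for any of the 30 genes, a condition of the choice, and the span reaches from a rise of 5.06 for Mup5 to a fall of 6.30 for Fabp4.

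Mup5, Gp2 and Gpr37 had the largest rises among genes past the threshold. Gpr37, a G protein-coupled receptor best known from the nervous system, had log2 levels of 11.47, 11.23 and 11.67 in the cancers and 6.90, 6.91 and 6.43 in normal tissue, a rise of 4.71 ± 0.28 (SE, adjusted p = 2.14e-13). Gp2, a membrane glycoprotein of secretory granules, measured 11.70, 13.02 and 12.94 against 7.65, 7.42 and 7.65 (4.98 ± 0.70, adjusted p = 8.97e-06). For both, every cancer lay more than 4 log2 units above the highest normal tissue. Mup5, of the major urinary protein family, measured 9.90, 11.94 and 10.17 against 5.44, 5.50 and 5.90 (5.06 ± 1.05, adjusted p = 0.000965), and its probe set may bind other members of that family. Sms, the spermine synthase of polyamine production, measured 10.76, 10.12 and 11.43 against 8.03, 7.92 and 6.36, a rise of 3.34. Col2a1, the collagen of cartilage, measured 10.14, 11.14 and 11.48 against 7.40, 7.37 and 8.24, a rise of 3.25 that did not pass with the actin ratio as a covariate (2.67, adjusted p = 0.0567). Another Col2a1 probe set stood at 0.81 (adjusted p = 0.106). For Mup5, Sms and Col2a1, too, the lowest cancer lay above the highest normal tissue on the probe set used. Groups without overlap were a condition of the choice of the genes with the largest rises.

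Of 14 measured members of the hormone list 5 rose and 2 fell in the cancers (50%, beside 23.5% over all genes). The median was 0.26, beside 0.04 over all genes, and the receptors of prolactin and progesterone were among the risen genes. Prlr, the prolactin receptor, measured 12.83, 12.16 and 12.49 in the cancers and 7.44, 9.03 and 9.65 in normal tissue (3.79 ± 0.60, adjusted p = 5.1e-05). Pgr, the progesterone receptor, measured 10.99, 10.16 and 10.59 against 7.27, 6.88 and 7.88 (3.24, adjusted p = 0.00034). The spread of Prlr was larger in normal tissue than in the cancers. Neither gene's groups overlapped, which for Prlr was a condition of its choice among the largest rises. Among the secreted factors of the list, Wnt4, a progesterone-induced signal from luminal to basal cells, measured 11.34, 11.33 and 10.92 against 7.51, 7.12 and 7.44 (3.84 ± 0.50, adjusted p = 3.01e-06). Areg, amphiregulin, the oestrogen-induced ligand of the epidermal growth factor receptor, measured 12.85, 12.53 and 12.90 against 8.21, 7.98 and 8.73 (4.45 ± 0.40, adjusted p = 3.38e-09). Id4, an inhibitor of helix-loop-helix factors, rose by 2.90 ± 0.39 (adjusted p = 4.44e-06). The growth hormone receptor Ghr went the other way, with 7.75, 7.57 and 7.75 in the cancers and 10.74, 9.96 and 9.85 in normal tissue (−2.49 ± 0.35, adjusted p = 1.19e-05). Stat5a, a transcription factor activated by prolactin and growth hormone receptors, fell by 0.70, a call lost without normal tissue 2 (adjusted p = 0.0761) and with either covariate (0.238 and 0.0959). The 7 members not called held Tnfsf11 (−0.03 and 0.03 for its 2 probe sets, adjusted p = 0.987 and 0.990). They also held Greb1 (−0.42 and 0.28, adjusted p = 0.483 and 0.779) and Cish (−0.40 and −0.28, adjusted p = 0.436 and 0.716). Of the 14 members 10 had a value above 0 and 4 below.

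The ligands of the epidermal growth factor receptor family did not move as 1 group. Of 11 measured ligands, receptors and regulators, 4 rose and 1 fell (45.5%, beside 23.5% over all genes), and the median was 0.60. Without spontaneous cancer 3, 2 rose and none fell, and with the ceiling as a covariate 2 rose and 1 fell. Besides Areg, the ligand Tgfa measured 9.14, 9.31 and 9.57 against 8.26, 6.99 and 7.88 (1.63 ± 0.31, adjusted p = 0.000343). The other probe set of Tgfa stood at 0.83 (adjusted p = 0.0729). Btc, betacellulin, rose by 1.28, a call lost without spontaneous cancer 3 (1.15, adjusted p = 0.0546) and with the ceiling as a covariate (adjusted p = 0.0711). The receptors Egfr (0.19, adjusted p = 0.677) and Erbb2 (0.60, adjusted p = 0.114) did not pass. ERK is the kinase these receptors activate. In the list of its output and feedback genes 5 of 15 measured rose and none fell (33.3%, beside 23.5% over all genes, median 0.44). They held the feedback inhibitors Spry1, at 10.63, 10.68 and 10.87 against 9.23, 9.41 and 9.32 (1.41 ± 0.18, adjusted p = 1.65e-06), and Spry2 (1.38). They also held the transcription factors Etv4 (2.18) and Etv5 (1.78), and the phosphatase Dusp5 (0.90, adjusted p = 0.0778 with the ceiling as a covariate). A second probe set of Etv5 stood at −0.06 (adjusted p = 0.863). The 3 cancers lay above all normal tissues for each of the 5 risen genes, by the probe set used. Groups did not overlap for 2697 of all 2768 genes past the threshold either.

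The Areg promoter is shown because it carries a full palindromic cAMP response element, a motif that 1.7% of all promoters in the RefSeq table and 2.85% of the promoters of tested genes held. The 150 bases before its annotated start are from chr14:17265642-17265791 of GRCr8, minus strand, with the motif (TGACGTCA, both strands searched) in capitals, 91 bases before the start.
Areg: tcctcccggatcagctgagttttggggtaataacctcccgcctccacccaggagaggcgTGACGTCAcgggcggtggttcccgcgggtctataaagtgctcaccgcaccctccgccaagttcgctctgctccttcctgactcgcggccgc
A match of letters is a description of the window and was not tested for binding.

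Genes of insulin-like growth factor signalling included some of the largest rises. Igf2, a fetal growth factor, had log2 levels of 12.97, 13.23 and 13.14 in the cancers and 9.01, 9.01 and 8.63 in normal tissue, a rise of 4.23 ± 1.37 (adjusted p = 0.0243). The gap was wide and even within these 6 arrays, but the error of the fit comes from all 36 arrays. The call was lost without spontaneous cancer 1, 2 or 3 (adjusted p = 0.0526, 0.0611 and 0.0641), without normal tissue 2 or 3 (0.0571 and 0.0689), and with the ceiling (0.13) or the actin ratio (0.0513) as a covariate. Its fold change stayed between 4.10 and 4.67 in those fits. Igfals, which holds the growth factors in the circulating complex, measured 10.24, 10.16 and 9.84 against 5.73, 5.62 and 5.77 (4.37 ± 1.08, adjusted p = 0.00418, and 0.0863 with the ceiling as a covariate). Igfbp3, a binding protein of the same complex, measured 10.75, 11.28 and 10.55 against 8.27, 8.32 and 9.35 (2.22 ± 0.47, adjusted p = 0.00113). Igf1, the growth hormone-dependent member, was lower, with 9.73, 9.79 and 9.46 against 11.70, 10.69 and 11.30 (−1.57 ± 0.46, adjusted p = 0.0136). Without spontaneous cancer 3 or normal tissue 1 the call of Igf1 was lost (−1.47, adjusted p = 0.0539, and −1.33, adjusted p = 0.0629). H19, the RNA imprinted with Igf2, measured 10.86, 12.82 and 10.71 against 8.90, 9.19 and 9.52 and did not pass (2.26, adjusted p = 0.224). Of 13 measured members 3 rose and 1 fell (30.8%, beside 23.5% over all genes), and the median was 0.15. With the ceiling as a covariate 1 rose and 1 fell, without spontaneous cancer 3 or normal tissue 1 none fell (2 and 3 rose), and in the fit on the 6 arrays 5 rose and 2 fell.

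Ligands, receptors and target genes of the Wnt pathway rose in larger numbers than they fell. Of 18 measured members 8 rose and 2 fell (55.6%, beside 23.5% over all genes), and the median was 0.47. The ligands Wnt5a (9.06, 8.26 and 9.40 against 6.92, 6.83 and 7.21, a rise of 1.92) and Wnt6 (1.53) passed besides Wnt4. Lef1, a transcription factor of the pathway and itself a target of it, measured 9.83, 10.66 and 10.34 against 7.30, 7.19 and 8.09 (2.75 ± 0.46, adjusted p = 9.87e-05). The frizzled receptors split, with Fzd2 (1.09) and Fzd6 (0.84) higher, while Fzd4, a receptor of vascular cells among others, was lower (8.74, 8.64 and 8.67 against 10.44, 10.24 and 10.04, −1.56 ± 0.24, adjusted p = 2.79e-05). A second Fzd4 probe set stood at −0.33 (adjusted p = 0.333). Axin2, the usual readout of beta-catenin signalling, rose by 0.75 (adjusted p = 0.00591), a call lost without normal tissue 2 (0.48, adjusted p = 0.0805) and in a fit on the 6 arrays alone (adjusted p = 0.0626).

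Genes of DNA replication and mitosis were higher in the cancers as a group. Of 25 measured members 22 rose and none fell, against 13% of all genes that rose, and the median was 1.29. The 3 not called were Plk1 (1.29, adjusted p = 0.0577), Tyms (0.65) and Mcm5 (0.43). All 3 cancers lay above all 3 normal tissues for 24 of the 25, beside 43.8% of all genes without overlap in either direction. Ccna2, the cyclin of S and G2 phase, measured 9.96, 10.07 and 10.36 in the cancers and 8.65, 8.17 and 6.97 in normal tissue (2.20 ± 0.53, adjusted p = 0.00364). Cdc20, which activates the anaphase-promoting complex, measured 10.09, 10.68 and 10.86 against 8.64, 8.83 and 7.70 (2.15 ± 0.51, adjusted p = 0.00283). Top2a, the topoisomerase of dividing cells, measured 10.85, 11.24 and 11.32 against 9.61, 9.65 and 8.75 (1.80 ± 0.39, adjusted p = 0.00128). The ceiling as a covariate ended the 3 calls (adjusted p = 0.143, 0.143 and 0.0701), and the actin ratio those of Ccna2 and Cdc20 (0.0838 and 0.0691). In each of these, normal tissue 3 was the lowest array.

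The count of risen cell cycle genes depended on the arrays used. It was 8 without normal tissue 3, 14 without spontaneous cancer 3, 2 with the ceiling and 3 with the actin ratio as a covariate, while none fell in any of these fits. Both array measures differed between the groups without overlap, so that array quality and tissue cannot be told apart here. Mki67, the proliferation marker, had 10.79, 11.05 and 11.02 against 10.13, 9.79 and 8.31 (1.54, adjusted p = 0.0217). Without normal tissue 3 it stood at 0.99 (adjusted p = 0.182), without spontaneous cancer 2 or 3 its adjusted p was 0.0606 or 0.0636, and with the covariates 0.428 and 0.323.

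**Figure D2:**
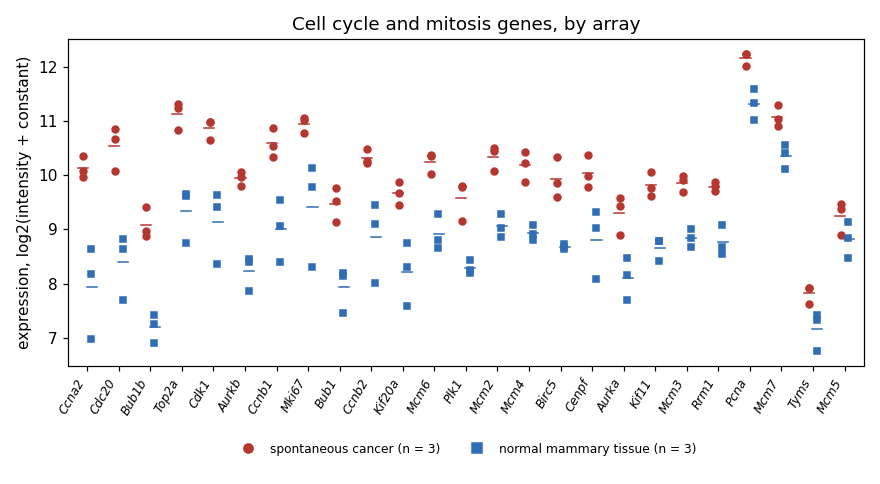
Log2 levels of the 25 measured cell cycle and mitosis genes, 1 point per array with the group mean as a line, ordered by fold change, spontaneous cancers in red and normal tissues in blue. The cancers lay above every normal tissue for 24 of the 25 genes, with Mcm5 (0.43) at the low end. Over all genes 43.8% had no overlap in either direction.

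The promoters of 3 of the risen mitosis genes are shown because they hold 2 motifs that were each more frequent in that list than among tested genes. How many promoters held both was not counted. Of 22 cell cycle promoters matched by gene identifier, 77.3% held a CCAAT box (CCAAT, both strands) in the 250 bases before the start. The share was 35.5% of tested genes and 34.3% of all 27457 promoters in the RefSeq table. The cell cycle homology region (TTTGAA, both strands) was held by 31.8%, beside 10.1% and 16%. Both motifs are in capitals in the last 150 bases before the annotated start, taken from chr20:19265143-19265292 (Cdk1, plus strand), chr5:137255800-137255949 (Cdc20, minus strand) and chr8:79981659-79981808 (Ccnb2, minus strand) of GRCr8.
Cdk1: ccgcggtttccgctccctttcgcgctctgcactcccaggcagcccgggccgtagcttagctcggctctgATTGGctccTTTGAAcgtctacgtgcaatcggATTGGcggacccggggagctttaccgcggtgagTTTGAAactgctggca
Cdc20: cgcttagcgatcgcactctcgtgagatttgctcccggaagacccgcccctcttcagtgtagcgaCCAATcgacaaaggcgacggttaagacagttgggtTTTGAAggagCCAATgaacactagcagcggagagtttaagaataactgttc
Ccnb2: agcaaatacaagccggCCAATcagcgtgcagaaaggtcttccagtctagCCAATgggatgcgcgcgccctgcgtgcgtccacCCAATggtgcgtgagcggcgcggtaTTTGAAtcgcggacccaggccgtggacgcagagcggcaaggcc
The kinase gene Cdk1 holds 2 of each motif, Cdc20 2 CCAAT boxes and 1 homology region, and the cyclin gene Ccnb2 3 and 1. Cdk1 rose by 1.73 and Ccnb2 by 1.47. Both calls were lost without normal tissue 3 (adjusted p = 0.0888 and 0.115), that of Ccnb2 also without spontaneous cancer 3 (0.0524), and those of all 3 genes with either covariate.

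Regulators of entry into the cycle went up on both the driving and the braking side. Of 17 measured cyclins, kinases and inhibitors of the retinoblastoma pathway 9 rose and 1 fell (58.8%, beside 23.5% over all genes, median 0.71). The count of risen genes was 5 without spontaneous cancer 2, 5 without normal tissue 3, 4 with the ceiling and 5 with the actin ratio as a covariate. The inhibitors Cdkn1a (p21), at 11, 10.58 and 11.61 against 9.33, 8.71 and 9.43 (1.91 ± 0.39, adjusted p = 0.000897), and Cdkn2a, at 8.07, 9.83 and 8.14 against 5.95, 6.11 and 5.63 (2.78 ± 0.69, adjusted p = 0.0044), were among the risen genes. So were the pocket protein Rbl1 (1.51 ± 0.30) and the cyclin Ccne2 (1.68, adjusted p = 0.0567 and 0.0623 with the ceiling and the actin ratio). Ccne2 had a second probe set at −0.07 (adjusted p = 0.878). Cdkn1a is also a p53 target, and of 12 measured p53 targets 5 rose and 1 fell (50%, beside 23.5% over all genes, median 0.50). Plk2, a kinase of the p53 response, measured 11.75, 12.00 and 11.77 against 10.52, 10.40 and 10.29 (1.43 ± 0.19, adjusted p = 5.74e-06), and Perp, a junction protein of p63 and p53 control, rose by 1.25. Gadd45a, a stress gene of the same list, fell by 1.36 (9.37, 9.54 and 9.16 against 11.12, 10.50 and 10.52). Among 12 DNA repair genes 5 rose and 1 fell (50%, beside 23.5% over all genes, median 0.38). The count of risen repair genes was 3 without spontaneous cancer 3 or normal tissue 2, and 2 with the ceiling as a covariate. The mismatch repair gene Msh6 rose by 0.85 ± 0.18 (adjusted p = 0.00119).

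Of 16 measured adipocyte markers 14 fell and none rose, and the median was −2.82, the lowest of the 46 lists. Fabp4, the fatty acid carrier of adipocytes, measured 7.05, 7.86 and 7.55 in the cancers and 13.77, 13.55 and 14.03 in normal tissue (−6.30 ± 0.60, adjusted p = 1.15e-08). The lipid droplet gene Plin1 measured 7.28, 7.06 and 7.44 against 11.96, 11.02 and 11.98 (−4.39 ± 0.27, adjusted p = 4.18e-13). The groups did not overlap for either gene, a condition of their choice among the largest falls. Adipoq, Cidec, another lipid droplet gene (5.94, 5.71 and 5.71 against 11.63, 10.39 and 10.80), and Lep, leptin (5.85, 5.55 and 5.76 against 9.78, 8.53 and 8.61), passed the filter on low values only through the normal tissues and so had to differ. Without these 3 genes 11 of the list fell. The summed intensity of the list was 10624 to 13084 in the cancers and 63349 to 82679 in normal tissue. Less RNA per fat cell and fewer fat cells cannot be told apart in bulk tissue, here or for any other cell type below. Of the 2 markers not called, Lipe, the hormone-sensitive lipase, was the only one with a value above 0 (0.31, adjusted p = 0.345). Its other probe set stood at −3.17 (adjusted p = 1.5e-06).

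The count of fallen adipocyte genes moved by less than 1.5 times in all alternatives. The falls of Plin1, Aqp7, Fabp4 and Pparg, the last a master regulator of fat cell formation (7.31, 7.27 and 7.40 against 9.00, 8.47 and 8.77, −1.42), passed in each alternative in which they were tested, 20 for Pparg and 21 for the others. Outside the list, Rbp4, the retinol carrier secreted by fat and liver (5.56, 5.60 and 5.61 against 9.90, 9.31 and 9.79), Trarg1, a regulator of glucose transporter traffic in fat (6.13, 6.12 and 5.85 against 10.87, 9.74 and 10.34), and the carboxylesterase Ces1d (5.61, 6.05 and 5.88 against 10.56, 10.25 and 11.04), were also tested only because normal tissue passed the filter. Car3, the carbonic anhydrase found in adipose tissue and muscle, fell too (10.10, 8.89 and 8.36 against 13.48, 13.34 and 13.97, −4.48). Pdk4, a kinase that limits glucose oxidation, measured 9.60, 8.73 and 8.14 against 12.87, 12.75 and 13.25 (−4.14, adjusted p = 0.00129, and 0.0879 with the ceiling as a covariate).

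**Figure D3:**
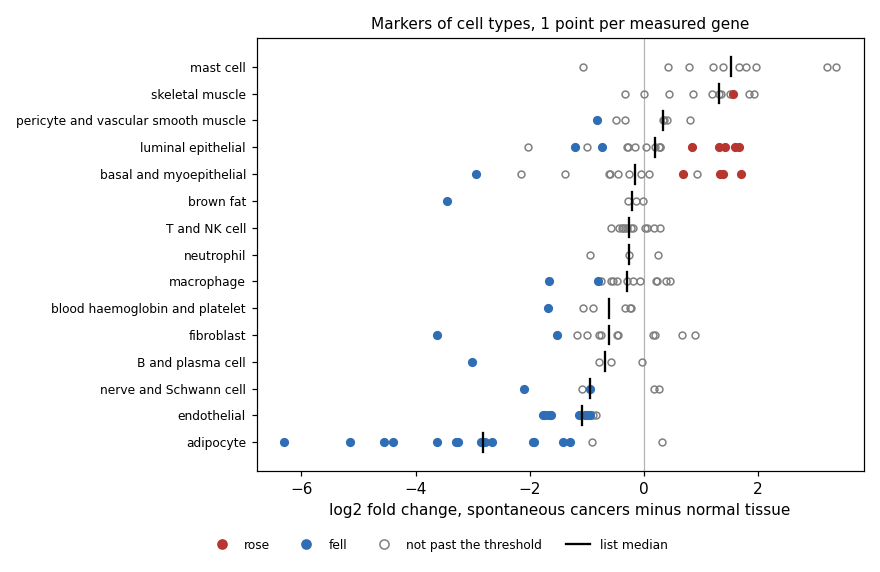
Log2 fold change of every measured member of the 15 cell type lists, 1 point per gene, with genes that rose in red, genes that fell in blue, genes not past the threshold open and the list median as a bar. Adipocyte markers (median −2.82) and endothelial markers (median −1.09) lay lowest, while the mast cell list (median 1.52) held no gene past the threshold.

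Lipid enzymes fell with 2 exceptions in the other direction. Of 14 measured genes of fatty acid synthesis 11 fell and 2 rose (median −1.18), and of 12 genes of triglyceride and glycerol handling 8 fell and none rose (median −2.0). Scd, a stearoyl-CoA desaturase, measured 8.81, 8.70 and 7.88 against 12.73, 11.28 and 13.23 (−3.95 ± 0.76, adjusted p = 0.000453). Its paralog Scd2 went the opposite way, with 12.83, 12.95 and 12.82 against 11.45, 9.76 and 10.12 (2.42 ± 0.24, adjusted p = 2.41e-08). The groups overlapped for neither desaturase, which for Scd was a condition of its choice among the largest falls. The elongase Elovl6 also rose (9.05, 9.51 and 8.78 against 7.14, 7.60 and 7.30, 1.77 ± 0.32), while Elovl5 fell by 1.16 and the carboxylase Acaca, the committed step of synthesis, by 1.21. Both desaturases, both elongases and Acaca passed in all alternatives, whereas the list as a whole had 4 fallen genes with the ceiling and 7 with the actin ratio as a covariate. Among triglyceride genes, Pck1, which feeds glycerol synthesis, measured 7.24, 7.25 and 7.04 against 12.55, 11.61 and 12.08 (−4.90 ± 0.21, adjusted p = 9.85e-17). Gpd1, the glycerol phosphate dehydrogenase, fell by 3.55 and the diacylglycerol acyltransferase Dgat1 by 1.03. Genes of mitochondrial fatty acid oxidation were lower by smaller steps, 6 of 15 having fallen (median −0.47), with Decr1 at 11.16, 11.12 and 11.28 against 12.68, 12.88 and 12.94 (−1.65 ± 0.18, adjusted p = 1.31e-07). Without spontaneous cancer 2 or normal tissue 2, 3 of the 15 passed.

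Vessel genes were lower. Of 10 measured endothelial markers 8 fell and none rose (median −1.09), and the summed intensity was 3178 to 4015 in the cancers and 7880 to 11185 in normal tissue. The angiopoietin receptor Tek measured 8.41, 8.36 and 8.01 against 10.37, 9.82 and 9.88 (−1.77 ± 0.36, adjusted p = 0.000812). Emcn, an endothelial sialoglycoprotein (−1.74), Eng, a co-receptor of transforming growth factor beta (−1.66), and Esam, an adhesion molecule (−1.04), fell in all alternatives. The count was 5 without spontaneous cancer 3 and 5 with the actin ratio as a covariate. Pericyte genes did not move together, 1 of 7 having fallen (14.3%, beside 23.5% over all genes, median 0.33). Of 5 nerve and Schwann cell genes 2 fell (40%, beside 23.5% over all genes, median −0.94). They were S100b, which fat cells also express (9.60, 9.43 and 9.28 against 11.99, 11.06 and 11.57, −2.10 ± 0.45, adjusted p = 0.00122), and Pmp22 (−0.94). A second Pmp22 probe set stood at −0.25 (adjusted p = 0.504). The list count was 1 when any of the 6 arrays was left out, with either covariate and for the mean of probe sets. It was 3 in the fit on the 6 arrays and with array weights.

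Of 12 measured fibroblast markers 2 fell and none rose (16.7%, beside 23.5% over all genes, median −0.62). For 8 of them every cancer lay below every normal tissue, beside 43.8% of all genes without overlap in either direction. The summed intensity of the list was 19924 to 24943 in the cancers and 26073 to 36435 in normal tissue. The count of fallen markers was 1 without spontaneous cancer 3 or normal tissue 1 or 3 and with either covariate, and 5 in the fit on the 6 arrays. Dpt, dermatopontin of the matrix, measured 9.46, 8.66 and 8.11 against 12.69, 11.79 and 12.61 (−3.62 ± 0.55, adjusted p = 2.63e-05), while the proteoglycan genes Dcn (−0.75, adjusted p = 0.504) and Lum (0.89, adjusted p = 0.476) did not pass. Of 15 collagen genes 2 rose and none fell (13.3%, beside 23.5% over all genes, median 0.31), and neither passed with either covariate. Of 19 laminins and integrins 5 rose and 1 fell (31.6%, beside 23.5% over all genes, median 0.15), with the laminin chains Lamc1 (11.75, 12.25 and 12.09 against 11.04, 10.76 and 11.04, 1.08 ± 0.23) and Lamb3 (1.33 ± 0.30) higher. The laminin receptor Itga7, found in muscle and vessel walls, was lower (7.87, 7.91 and 7.57 against 10.31, 9.61 and 9.51, −2.03 ± 0.23, adjusted p = 3.44e-07).

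The matrix proteases rose at 3 members and not as a family. Mmp3, stromelysin, measured 12.84, 10.65 and 12.58 in the cancers and 8.97, 7.86 and 8.80 in normal tissue (3.48 ± 0.73, adjusted p = 0.0011). Mmp13, a collagenase, measured 10.92, 9.31 and 10.73 against 6.32, 6.03 and 8.14 (3.49 ± 0.81, adjusted p = 0.00249). In both genes spontaneous cancer 2 was the lowest cancer and normal tissue 2 the lowest normal tissue. Mmp14, a membrane-bound protease that activates other family members, measured 11.49, 11.49 and 11.41 against 9.44, 9.25 and 11.11 (1.53 ± 0.36, adjusted p = 0.00255). Of 17 measured proteases and inhibitors 3 rose and 2 fell (29.4%, beside 23.5% over all genes, median −0.44). For the mean of probe sets 3 rose and none fell. Plg, plasminogen, a protease precursor outside the list, measured 10.02, 10.40 and 9.75 against 6.91, 7.05 and 6.10 (3.37 ± 0.59, adjusted p = 0.000163).

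Promoters of the 2 proteases with the largest rises are shown because both hold an AP-1 site and a TATA box (TATAAA) close to the start. The AP-1 site (TGANTCA, both strands) lay in the 250 bases before the start for 5 of 13 protease and inhibitor promoters (38.5%), beside 4.59% of tested genes and 6.36% of all promoters. The 150 bases before the annotated start are from chr8:12925131-12925280 (Mmp3) and chr8:12782679-12782828 (Mmp13) of GRCr8, both on the plus strand, with the motifs in capitals.
Mmp3: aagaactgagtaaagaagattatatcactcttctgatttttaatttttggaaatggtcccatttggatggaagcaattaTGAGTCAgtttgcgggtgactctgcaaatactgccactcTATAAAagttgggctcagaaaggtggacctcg
Mmp13: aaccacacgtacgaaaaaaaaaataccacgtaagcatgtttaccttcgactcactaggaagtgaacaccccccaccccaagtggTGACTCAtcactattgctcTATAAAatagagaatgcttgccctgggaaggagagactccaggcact
The AP-1 site lies 71 bases before the start in Mmp3 and 66 in Mmp13, and the TATA box 32 and 47. These are matches of letters and were not tested for binding.

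Epithelial identity genes moved in both directions. Of 17 measured luminal markers 5 rose and 2 fell (median 0.19), and of 14 basal and myoepithelial markers 4 rose and 1 fell (median −0.17). These were 41.2% and 35.7% of the lists, beside 23.5% over all genes. Tp63, the master factor of basal epithelium, measured 10.51, 11.05 and 10.96 against 9.59, 9.36 and 9.40 (1.39 ± 0.31, adjusted p = 0.00168). The basal keratin Krt15 measured 12.40, 12.87 and 12.24 against 11.46, 10.46 and 10.48 (1.70, adjusted p = 0.0034, and 0.0644 with the ceiling as a covariate). Oxtr, the oxytocin receptor that drives milk ejection, measured 5.91, 5.78 and 6.03 against 8.57, 9.04 and 8.93, and it too passed the filter only through normal tissue. It was the 1 fallen gene of the basal list, so without it no basal marker fell. The contractile genes Acta2 (−0.45, adjusted p = 0.248) and Mylk (−0.60, adjusted p = 0.113) did not pass. Summed intensities overlapped for the luminal list (59130 to 69358 in the cancers, 58866 to 79922 in normal tissue) and for the basal list (35298 to 48148 and 35452 to 42577). Of the luminal genes 1 passed with either covariate and 3 without spontaneous cancer 3. After quantile normalization 8 luminal genes rose and 1 fell.

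Among transcription factors of the luminal lineage, Tfap2b measured 11.39, 11.13 and 11.25 against 7.24, 7.87 and 8.29 (3.45 ± 0.62, adjusted p = 0.00021), and its relative Tfap2a rose by 0.81 ± 0.18. These were the 2 risen genes of 9 measured TFAP2, GRHL and ETS family members, and none fell (22.2%, beside 23.5% over all genes, median −0.13). Of 14 tight junction genes 2 rose and 3 fell (35.7%, beside 23.5% over all genes, median −0.26). Cldn6, a claudin of embryonic epithelium, measured 9.84, 9.80 and 9.98 against 6.28, 5.93 and 6.14 (3.76 ± 0.40, adjusted p = 1.07e-07). Cldn7 measured 11.67, 11.73 and 11.74 against 9.30, 10.37 and 11.52 (1.32 ± 0.30, adjusted p = 0.00192), so that the normal tissues spread over more than 2 log2 units while the cancers were nearly level. In a fit on the 6 arrays alone, Cldn7 did not pass (adjusted p = 0.0885).

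Milk and secretion genes were lower to unequal degrees. All 10 measured genes of the list had every cancer below every normal tissue (median −1.31), beside 43.8% of all genes without overlap in either direction. Past the threshold 3 fell (30%), beside 10.5% of all genes. Lpo, the lactoperoxidase of milk, measured 7.14, 7.67 and 6.75 against 10.21, 11.22 and 10.06 (−3.31 ± 0.88, adjusted p = 0.00684, and 0.241 with the ceiling as a covariate). Xdh, needed for milk fat secretion, fell by 1.86, a call lost without spontaneous cancer 1 or 3 (adjusted p = 0.06 and 0.121) and without normal tissue 2 or 3 (0.0663 and 0.105), after quantile normalization (0.0764) and with either covariate (0.938 and 0.161). The whey protein gene Wap measured 11.48, 12.53 and 11 against 13.43, 13.42 and 14.36 and did not pass (−2.07, adjusted p = 0.254). The casein gene Csn2 had 13.43, 13.50 and 13.33 against 13.69, 13.64 and 14.54 (−0.54, adjusted p = 0.707), which is near the signal ceiling of these arrays. With the ceiling as a covariate no milk gene passed, and without normal tissue 2 only 1 did.

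Of 15 membrane transporters 9 fell and 1 rose (median −1.17). Aqp3, a channel for water and glycerol, measured 5.93, 7.38 and 6.86 against 11.38, 12.06 and 11.34 (−4.87 ± 0.55, adjusted p = 2.45e-07), and the zinc and iron carrier Slc39a8 measured 8.79, 9.20 and 8.86 against 10.35, 12.49 and 11.01 (−2.34 ± 0.44). Pigr, a receptor outside that list which carries antibodies into milk, measured 8.88, 9.27 and 7.46 against 13.20, 13.41 and 13.25 (−4.75 ± 0.90, adjusted p = 0.000383, and 0.0618 with the ceiling as a covariate). The transporter count was 6, all lower, without spontaneous cancer 3, 3 with the ceiling and 5 with the actin ratio as a covariate.

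**Figure D4:**
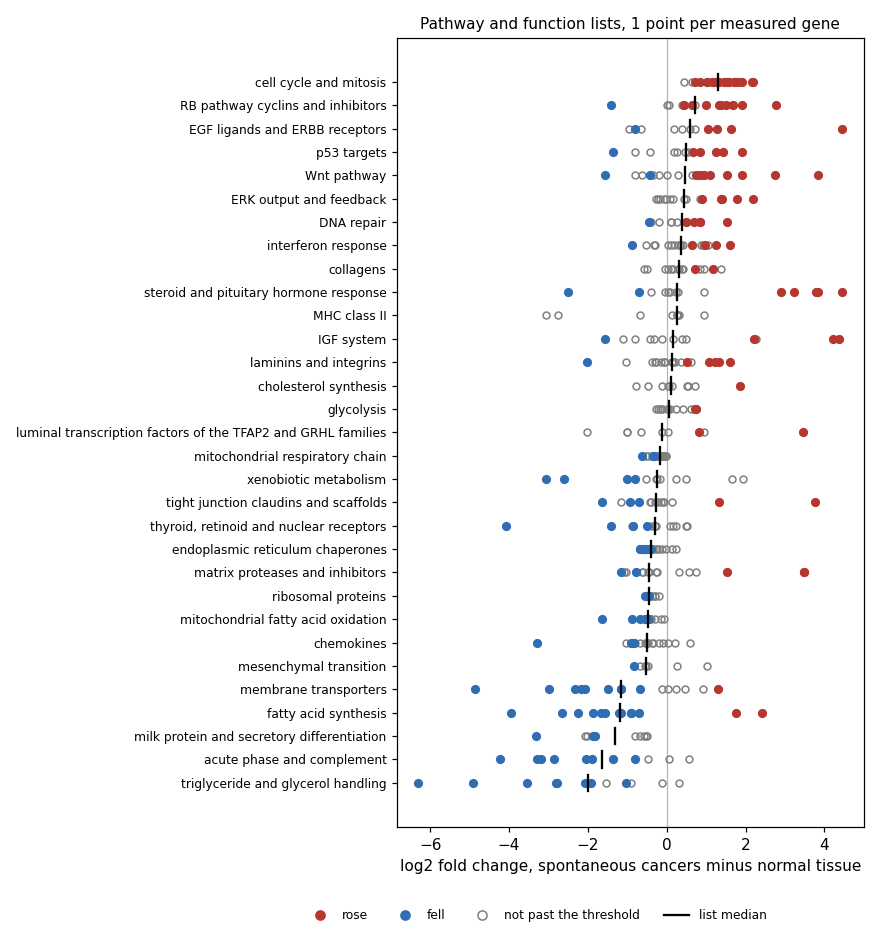
Log2 fold change of every measured member of the 31 pathway and function lists, 1 point per gene, with genes that rose in red, genes that fell in blue, genes not past the threshold open and the list median as a bar. Cell cycle genes (median 1.29) lay highest, and triglyceride genes (median −2.0), acute phase genes (median −1.63) and milk genes (median −1.31) lowest.

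Acute phase and complement genes were lower in the cancers, 8 of 12 measured having fallen and none risen (median −1.63). Serpina3n, a protease inhibitor of the acute phase, measured 7.99, 7.55 and 8.17 against 11.85, 8.97 and 11.44 (−2.85 ± 0.50, adjusted p = 0.000176). Cfd, the complement factor D also called adipsin, fell by 3.30 and is a fat cell product as well. Saa3, serum amyloid A, measured 8.81, 10.97 and 8.93 against 13.42, 13.52 and 14.48 (−4.24 ± 1.26, adjusted p = 0.0151). The call of Saa3 was lost without spontaneous cancer 1 or 3 (adjusted p = 0.0588 and 0.0612), without normal tissue 3 (0.0597) and with either covariate (0.436 and 0.105). The complement regulator C4bpa (6.90, 5.72 and 5.70 against 10.32, 9.61 and 11.30, −4.30) had an adjusted p of 0.00125, and of 0.201 with the ceiling as a covariate. The list count was 5 without spontaneous cancer 3, 4 without normal tissue 3, 2 with the ceiling and 4 with the actin ratio.

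Immune cell lists differed in their summed levels. None of 12 T and NK cell markers passed (median −0.27), and their summed intensities overlapped (2627 to 3049 in the cancers, 3006 to 3234 in normal tissue). The 4 measured B and plasma cell markers had summed intensities of 905 to 2015 in the cancers and 5885 to 7294 in normal tissue. Most of the sum in normal tissue, and most of the gap, came from 1 gene, Jchain, described below. The gap is thus not a trait of the 4 markers together. For 3 of 4 every cancer lay below every normal tissue, beside 43.8% of all genes without overlap in either direction. Only Jchain passed the threshold. Mzb1 (−0.78) and Ms4a1 (−0.59) were lower without passing, and Blnk was nearly level (−0.04). Ms4a1 passed the filter on low values only through normal tissue. Of 13 macrophage markers 2 fell and none rose (15.4%, beside 23.5% over all genes, median −0.30). The count was 1 without spontaneous cancer 2 or 3 or normal tissue 1 or 3. The fallen markers held Gpnmb, a glycoprotein of lipid-laden macrophages (11.77, 11.10 and 10.73 against 13.32, 12.29 and 12.98, −1.66 ± 0.41, adjusted p = 0.00441). The lymphoid chemokine Ccl21 measured 7.54, 7.37 and 8.15 against 11.65, 10.37 and 10.87 (−3.28 ± 0.76, adjusted p = 0.00243), and 4 of 18 chemokines fell in all (22.2%, median −0.50), or 2 without spontaneous cancer 3 or normal tissue 1 or 3. The joining chain of secreted antibodies, Jchain, measured 9.31, 10.26 and 8.58 against 12.23, 12.33 and 12.62 (−3.01, adjusted p = 0.0413). That call was lost in 9 alternatives, among them each single array left out except spontaneous cancer 2, with adjusted p of 0.0706 (normal tissue 1) to 0.146 (spontaneous cancer 3), and with the ceiling (−1.39, adjusted p = 0.535) and the actin ratio (0.0677) as covariates. Of 19 interferon response genes 4 rose and 1 fell (26.3%, beside 23.5% over all genes, median 0.36). The count of risen genes was 2 without spontaneous cancer 1, normal tissue 2 or normal tissue 3, with the actin ratio as a covariate and after median scaling. The immunoproteasome subunit Psmb9 measured 12.30, 12.55 and 12.39 against 11.27, 10.65 and 10.48 (1.61 ± 0.21, adjusted p = 2.38e-06), and the peptide transporter Tap2 rose by 0.98.

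In 3 lists single cancers stood apart. Mast cell genes were highest in spontaneous cancer 3, with a summed intensity of 15724 beside 9518 and 5047 in cancers 2 and 1 and 3517 to 4587 in normal tissue. The tryptase gene Tpsab1 measured 8.42, 9.57 and 10.85 against 6.22, 6.21 and 6.34 (3.36 ± 1.73, adjusted p = 0.161) and the protease gene Mcpt1 7.61, 10.72 and 9.93 against 6.54, 5.85 and 6.25 (3.21, adjusted p = 0.136). None of 10 mast cell genes passed. The groups did not overlap for 6 higher and 1 lower, beside 43.8% of all genes. In a fit on the 6 arrays alone 5 higher and 1 lower passed. Skeletal muscle genes were high in spontaneous cancer 1, lower in 3 and near normal tissue in 2, as for the kinase gene Ckm (10.32, 6.59 and 8.54 against 7.40, 6.86 and 7.15) and the myosin light chain Myl1 (11.04, 6.61 and 9.39 against 7.63, 6.83 and 7.07). Actn3 alone of 11 rose (1.55, adjusted p = 0.0166), and without spontaneous cancer 2 there were 7. The Actn3 call was lost without spontaneous cancer 1 (1.03, adjusted p = 0.14) or 3 (adjusted p = 0.0611), without normal tissue 3 (0.0535), with the ceiling as a covariate (0.059) and in the fit on the 6 arrays (0.0592).

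Among MHC class II genes, a probe set of RT1-Ba, the alpha chain of the RT1.B molecule, had log2 levels of 6.91, 7.93 and 12.04 in the cancers and 12.52, 11.50 and 12.02 in normal tissue, and one of RT1-Bb, its beta chain, 6.53, 6.59 and 11.56 against 11.84, 10.47 and 10.60. Cancers 1 and 2 thus lay more than 3 log2 units below all normal tissues while cancer 3 lay among them. Neither passed (adjusted p = 0.0716 and 0.0651), and both passed as lower without spontaneous cancer 3 (−4.59, adjusted p = 0.0131, and −4.41, adjusted p = 0.00420). These are the values of 1 probe set per gene, and others of the same genes differed in direction. Of 4 for RT1-Ba another stood at −3.08 and the remaining ones at 0.07 and 2.92, and the second of RT1-Bb at 1.80, none past the threshold (adjusted p = 0.0616, 0.933, 0.112 and 0.206). None of the 9 class II genes was called, and RT1-Db1 of the RT1.D molecule had 11.61, 12.23 and 11.83 against 11.01, 10.84 and 10.99 (0.94, adjusted p = 0.336).

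Very abundant housekeeping genes were slightly lower and lay at the ceiling. Of 10 measured ribosomal protein genes 6 fell (median −0.45), such as Rps6 (13.37, 13.53 and 13.31 against 13.62, 13.81 and 14.42, −0.54) and Rpl7 (−0.53). None passed as lower without normal tissue 3, after quantile normalization (where 1 passed as higher), with either covariate or in a fit on the 6 arrays. Without normal tissue 3 Rps6 stood at −0.31 (adjusted p = 0.118) and Rpl7 at −0.34 (0.104). Of 17 chaperone and stress genes of the endoplasmic reticulum 6 fell and none rose (35.3%, beside 23.5% over all genes, median −0.39). Among them the co-chaperone Dnajc3 (−0.62) and the stress factor Atf4 (−0.68) passed in all alternatives. The count of fallen genes was 3 without spontaneous cancer 1, and 2 without spontaneous cancer 3 or normal tissue 3, with either covariate and in the fit on the 6 arrays. After quantile normalization 2 passed as lower and 1 as higher.

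A second comparison asked where spontaneous cancers differ from the 19 other cancers without H-ras mutation. Only 8 of 11773 genes passed (0.068%), 7 higher and 1 lower in the spontaneous cancers, and 901 had an unadjusted p under 0.05. It shares the 3 spontaneous cancers with the comparison above, so both sets of values are given side by side and no agreement between them is counted. Vsnl1, a neuronal calcium sensor, measured 9.15, 11.42 and 8.82 in the spontaneous cancers and 6.24 to 8.70 (median 7.08) in the other 19 (2.59 higher), and it lay 2.79 above normal tissue (7.29, 6.69 and 7.05). Plg measured 10.02, 10.40 and 9.75 beside 5.82 to 9.66 (2.36 higher). Stc1, a secreted glycoprotein of calcium and phosphate balance, measured 11.46, 10.27 and 10.04 beside 8.23 to 9.59 (1.46 higher) and lay 2.56 above normal tissue (8.08, 7.98 and 8.03). For these 3 genes each spontaneous cancer lay above all 19 others.

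Gpr37 and the receptor phosphatase Ptprd showed the same separation. Gpr37 measured 11.23 to 11.67 in the spontaneous cancers, 9.21 to 10.59 in the other 19 and 6.43 to 6.91 in normal tissue, so that the other cancers lay between (1.38 above them, 4.71 above normal tissue). Ptprd measured 9.17, 9.92 and 9.76 beside 7.12 to 8.74 in the other cancers (1.72 higher), and normal tissue measured 8.93, 8.31 and 8.66 (0.98, adjusted p = 0.0393). The call of Ptprd against normal tissue was lost without spontaneous cancer 2 or 3 (adjusted p = 0.142 and 0.119), without normal tissue 2 or 3 (0.15 and 0.0812) with either covariate (0.0937 and 0.0597), with another constant (16, 0.0567), after quantile normalization (0.0567) or median scaling (0.0664), and for the mean of probe sets (0.155). Groups overlapped for the remaining 3 genes. Edil3, an integrin ligand of vessel walls, measured 7.48, 8.08 and 9.62 beside 5.69 to 7.87 (1.72 higher), and its call against normal tissue was lost without spontaneous cancer 3 (1.11, adjusted p = 0.0813). Chst8, a sulfotransferase for pituitary hormone sugars, measured 8.81 to 9.38 beside 6.75 to 9.07 (1.40 higher). Ctu2, a tRNA thiolation enzyme, measured 7.71, 7.51 and 7.44 beside 7.71 to 8.24 (−0.50), and normal tissue measured 7.95, 8.23 and 8.16 (−0.56, adjusted p = 0.073 with the ceiling as a covariate). Without spontaneous cancer 1 or 2 the count of 8 genes became 5 and 4, of which 5 and 3 were among the 8. Without spontaneous cancer 3 the count stayed at 8, but only 4 of these were shared, and 3 were lower.

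**Figure D5:**
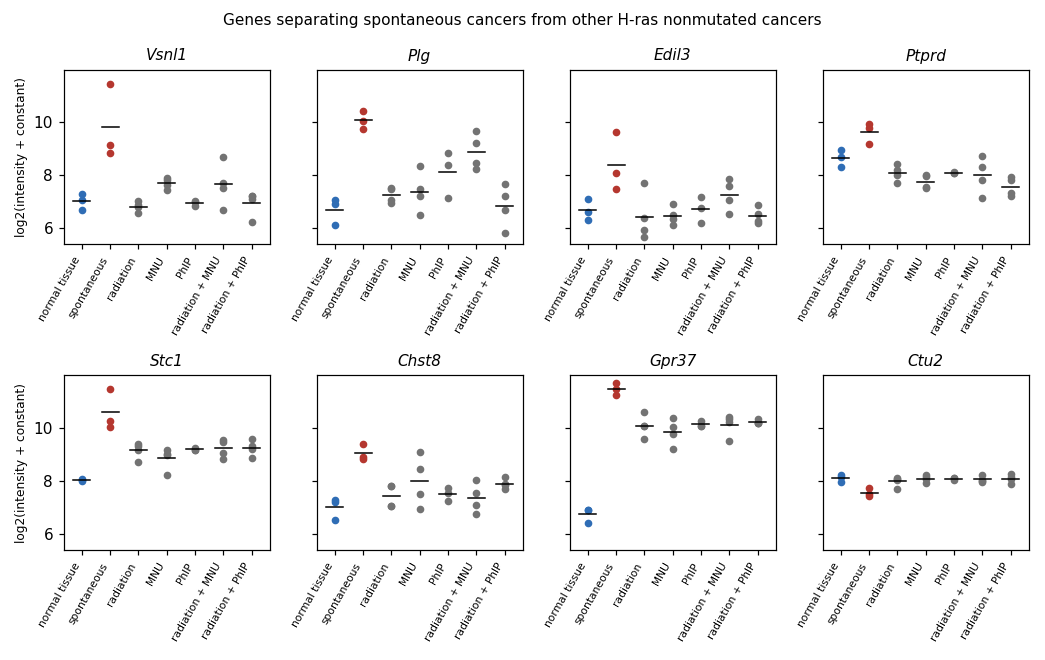
Log2 levels of the 8 genes that passed between spontaneous cancers and the other cancers without H-ras mutation, 1 point per array with group means as lines, normal tissue in blue, spontaneous cancers in red and the 5 treated groups in grey. All 3 red points lay above all grey points for Vsnl1, Plg, Ptprd, Stc1 and Gpr37, and overlapped with them for Edil3, Chst8 and Ctu2.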

How the data were processed

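RNA from 36 rat mammary samples was measured on single-colour oligonucleotide arrays. The authors deposited 1 linear intensity per probe set and array. The mean of each array after trimming 2% was close to 500, and the summarising method and its version are not given in the sources used here. Intensities were turned into log2(intensity + 42.8), where the constant is the 20th percentile over the whole table. Genes above 126 (the 40th percentile) on at least 3 arrays were kept. Of 31099 probe sets, 20832 had 1 gene symbol in the platform annotation, 436 several and 9831 none, and 20764 of those with 1 symbol were updated through their gene identifier in the RefSeq table. The probe set with the highest mean stood for its gene. Of 162 named or listed genes with several probe sets, none had calls in opposite directions, but a second probe set did not always pass. limma 3.58.1 in R 4.3.3 was fitted with 1 mean for each of 10 groups over all 36 arrays (lmFit, contrasts.fit, eBayes), with Benjamini-Hochberg adjustment over 11773 genes and a threshold of 0.05. The number of arrays limits the precision. The fit was checked on simulated data.

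Named genes were drawn from the 15 largest rises and falls whose groups do not overlap, in each list the up to 5 genes of smallest adjusted p, other list members with their values, and the 5 largest differences from other cancers. Not every gene that could be named is. Ctu2, Chst8 and Edil3 complete the 8 genes of that comparison. The 46 lists (649 genes, 560 measured) and the comparison were chosen with earlier results of these data known. Alternatives changed the constant, filter, scaling, probe set rule, arrays, variance model, array weights, covariates and replicate block. The actin covariate and the fit without an MNU cancer with a high hexokinase 3'/5' ratio were chosen after seeing the data. Promoters came from the RefSeq table of GRCr8, 9735 of the tested genes having one. The motifs not reported were the short cAMP site (TGACG), E-box (CACGTG), nuclear receptor site (AGGTCA) and its direct repeat, E2F site (TTTGGCGC), GC box (GGGCGG) and STAT site (TTCNNNGAA).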

Additional observations from a re-analysis of the deposited data

Results flagged for a closer look

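The 8 genes that passed between the spontaneous cancers and the other cancers without H-ras mutation (limma, adjusted over all genes) are listed here because the difference between groups of cancers was itself tested. In the spontaneous cancers Vsnl1 was higher by 2.59 on the log2 scale, Plg by 2.36, Edil3 by 1.72, Ptprd by 1.72, Stc1 by 1.46, Chst8 by 1.40 and Gpr37 by 1.38, and Ctu2 was lower (−0.50). Vsnl1 and Gpr37 passed under every alternative run for this comparison.

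Probe sets without a single gene symbol were left out of the comparisons. Of 5583 that passed the filter, 764 differed between spontaneous cancers and normal tissue in the same model (13.7%), 444 of them higher and 320 lower. Groups of 3 were not tested for outlying samples.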

How the results depend on the processing

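The count of 2768 genes against normal tissue became 1416 with the signal ceiling and 1576 with the actin 3'/5' ratio as a covariate, and 1810 (without spontaneous cancer 3) to 2520 when 1 array was left out. The count at 2-fold or more, 1120, ran from 874 to 1137 without 1 array. The 8 genes against other cancers became 5 with a constant of 16, 4 with the actin ratio, 577 with array weights, whose estimation gave a convergence warning, and 4 to 8 without 1 array. Of the 8 that passed without spontaneous cancer 3, 4 were shared with the main fit. Without the MNU cancer of high hexokinase 3'/5' ratio the counts were 3026 and 10. After median scaling 2505 genes passed (2177 shared), 945 higher and 1560 lower. Reversed values were those of Lipe as the mean of probe sets (−1.43), and of Rps6 (0.029) and Rpl7 (0.012) with the ceiling as a covariate. With the replicate number as a block, 2725 genes passed against normal tissue (2637 shared with the fit without it) and 5 against other cancers. The numbers do not pair the samples: deviations correlated at −0.101 to −0.0422 for the same number and −0.0195 to 0.0930 for different numbers. The block ended the call of Jchain (adjusted p = 0.0502).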

Other observations

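Lists not described above are given by their counts, beside 23.5% of all genes past the threshold. Of 14 measured glycolysis genes 2 rose and none fell (median 0.05), among them the kinase genes Hk1 (0.71) and Pfkm (0.74). Of 10 cholesterol synthesis genes 1 rose (median 0.10). Of 20 genes of the mitochondrial respiratory chain 3 fell (median −0.17), although all 20 had a value below 0. Of 12 genes of xenobiotic metabolism 4 fell (33.3%, median −0.26), among them Gsta1 (−3.06) and Sult1a1 (−2.61), and 2 fell when spontaneous cancer 1, 2 or 3 or normal tissue 1 or 3 was left out, and with the actin ratio as a covariate. Of 15 thyroid, retinoid and other nuclear receptor genes 4 fell (26.7%, median −0.30), 1 of which passed the filter only through normal tissue. Of 7 genes of mesenchymal transition 1 fell (median −0.52), of 4 brown fat genes 1 fell (median −0.21) and of 3 neutrophil genes none passed (median −0.27). Of 6 haemoglobin and platelet genes 1 fell (median −0.61), and none did when any of the 6 arrays was left out, although their summed intensity was 1711 to 2677 in the cancers and 4580 to 6415 in normal tissue.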
